A study of Caenorhabditis elegans with 3 samples.

Results

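The 39 insulin-like peptide genes of Caenorhabditis elegans were examined for occupancy by PQM-1, a zinc finger transcription factor, in whole L4 larvae. Members were chosen by name from Ensembl release 115 on WBcel235 (the ce11 build): every protein-coding gene whose name starts with ins-, which gave 38 genes, plus daf-28. They are 39 of 19973 nuclear protein-coding genes. The rule uses names alone. Chromatin immunoprecipitation and sequencing (ChIP-seq) was done on strain OP201, which carries the unc-119(tm4063) mutation on chromosome III and the transgene wgIs201 encoding PQM-1 with a C-terminal GFP-FLAG tag. The source label calls the animals mixed sex. The 3 libraries form 1 group, with 2 technical libraries of replicate 1 and 1 library of replicate 2, so no condition could be compared with another. All values describe tagged PQM-1 in a whole animal, and the tissue in which a site was occupied cannot be read from them.

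Insulin-like peptides are small secreted hormones. They act on DAF-2, the insulin/IGF receptor of the worm, either as agonists that activate it or as antagonists. Active DAF-2 signals through PI3 kinase and the AKT and SGK kinases and keeps the FOXO factor DAF-16 out of the nucleus. PQM-1 is known as a nuclear counterpart of DAF-16 that is tied to TGATAAG, the so-called DAF-16-associated element, and the intestine is a main site of its action. Several insulin-like peptides are made in the intestine, others mainly in neurons, and the peptides take part in dauer formation, growth, ageing and learning.

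The measurements are lists of peaks, each with a summit and a signal value given by the authors. The optimal list, cut by its makers for reproducibility between replicates (irreproducible discovery rate), held 4739 peaks with signals from 31.5 to 350.1 and a median of 55.4. The pooled list held 18821 peaks and the lists of replicates 1 and 2 held 24037 and 19038, all 3 with background peaks included. Signals were compared within a list only. Peak lists hold no read counts, so the depth is unknown and the intervals below cover only the counting of genes. Promoters span 1000 bp before the gene's outermost annotated start and 200 bp after it, and offsets are negative upstream.

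Sequences around the summits that carry the results below are shown first. The promoter summits of ins-7, ins-12, ins-35 and ins-39 come first, followed by 3 summits past the 3′ ends of ins-11, ins-37 and ins-13, and then by the strongest summit near any member, downstream of ins-1. Each is read 5′ to 3′ on the strand of the named gene from the RefSeq copy of WBcel235, 75 bp to each side of the summit, and that of ins-1 ends where an annotated untranslated region of F13B12.3 begins. Capitals mark matches on either strand to WGATAR (W is A or T, R is A or G), TGATAAG, which contains a WGATAR match, and GTAAACA, the element bound by DAF-16.
ins-7, chrIV:9682620-9682770 (minus strand): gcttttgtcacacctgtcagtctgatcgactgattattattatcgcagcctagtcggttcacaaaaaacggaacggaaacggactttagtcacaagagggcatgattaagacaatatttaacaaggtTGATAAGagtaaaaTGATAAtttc
ins-12, chrII:5553653-5553803 (plus strand): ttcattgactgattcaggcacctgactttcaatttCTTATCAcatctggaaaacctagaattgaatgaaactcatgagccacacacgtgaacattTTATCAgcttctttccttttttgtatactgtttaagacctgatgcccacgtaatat
ins-35, chrV:20374598-20374748 (plus strand): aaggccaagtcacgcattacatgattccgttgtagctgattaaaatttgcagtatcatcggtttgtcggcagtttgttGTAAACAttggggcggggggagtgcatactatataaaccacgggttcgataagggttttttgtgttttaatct
ins-39, chrX:1344968-1345118 (minus strand): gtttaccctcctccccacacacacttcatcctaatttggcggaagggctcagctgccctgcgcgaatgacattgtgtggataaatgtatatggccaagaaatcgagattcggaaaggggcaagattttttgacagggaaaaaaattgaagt
ins-11, chrII:5557268-5557418 (plus strand): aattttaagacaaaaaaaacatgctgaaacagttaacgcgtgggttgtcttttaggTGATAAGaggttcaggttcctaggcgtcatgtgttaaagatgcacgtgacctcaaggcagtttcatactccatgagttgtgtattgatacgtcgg
ins-37, chrII:13834897-13835047 (minus strand): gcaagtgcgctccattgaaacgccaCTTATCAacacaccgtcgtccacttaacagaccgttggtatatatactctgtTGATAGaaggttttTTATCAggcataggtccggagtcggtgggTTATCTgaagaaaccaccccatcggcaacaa
ins-13, chrII:5543645-5543795 (minus strand): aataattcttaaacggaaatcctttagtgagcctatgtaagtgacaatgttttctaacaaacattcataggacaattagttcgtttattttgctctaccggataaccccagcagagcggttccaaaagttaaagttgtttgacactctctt
ins-1, chrIV:10439035-10439122 (plus strand): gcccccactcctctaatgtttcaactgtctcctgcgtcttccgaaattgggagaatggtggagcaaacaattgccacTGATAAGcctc

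PQM-1 had an optimal summit in the promoters of 4 insulin-like peptide genes, ins-7, ins-12, ins-35 and ins-39, and in none of the other 35. That is 10.3% of the family (95% exact interval 2.87 to 24.2), against 12.8% of all nuclear protein-coding genes, so the share lay near the background. In the stronger 50% of the optimal list 3 of them remained, without ins-39, against 6.34% of all genes. With the strongest pooled peaks at 2 times the number of optimal peaks, the same 4 genes had a promoter summit, whereas the share of all genes was 23.9%. Their strongest promoter peaks had signals of 45.5 to 66.15 and a median of 57.05, beside a median of 55.1 over the 2553 genes with an optimal promoter summit. The 4 summits lay from 150 to 889 bp from the outermost start. From 500 bp upstream to 100 bp downstream of it, the family had 0 of 39 (95% exact interval up to 9.03%), against 9.64% of all genes. That window ends just short of the ins-7 summit, and the 0 holds for outermost starts only. From the second annotated start of ins-7 the summit lay at −274 bp, inside such a window.

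The agonist ins-7, a gene of the intestine and neurons that is known to fall when insulin signalling is low, held the strongest of the 4. Its gene lies on chromosome IV at 9682011 to 9682845 on the minus strand. The summit, with a signal of 66.15 and rank 1722 of 4739, stood in an intron of ins-7, 150 bp downstream of the outermost start. It lay at −274 bp from the second annotated start of ins-7, which is 424 bp further in. The nearest TGATAAG was centred 55 bp from this summit. Both replicates' lists held the peak, with signals of 21.5 and 45.0 and ranks 1635 and 1936. Its summit was also in the promoter of ZK1251.3, at −963 bp from that start, and it lay 1754 bp upstream of ins-8, the next insulin-like gene downstream.

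The gene ins-35, whose product is, like INS-7, secreted from the intestine, had a promoter summit at −863 bp with a signal of 57.1 and rank 2266. The signal was 18.6 in replicate 1 and 40.9 in replicate 2. No WGATAR lay within 100 bp of this summit, although 84.2% of all optimal summit windows held one, while GTAAACA, present in 4.90% of all optimal windows, was centred 6 bp from it. A second optimal summit at −3134 bp had a signal of 36.4 and rank 4067, held 4 WGATAR matches and a TGATAAG, and was in no promoter. It was almost as near to srh-177, at −3149 bp from that start. Both sites were found in the lists of both replicates.

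For ins-12 and ins-39 the promoter summits were also well upstream. That of ins-12, on chromosome II, lay at −889 bp with a signal of 57.0 (replicate lists 1 and 2 gave 18.75 and 37.9), and held 3 WGATAR matches with a TGATAAG centred 37 bp away. That of ins-39, on chromosome X, lay at −622 bp with a signal of 45.5 (replicate lists 1 and 2 gave 16.1 and 29.2). It held neither WGATAR nor TGATAAG. Its position was less firm than the others, since the replicate 1 summit was 136 bp from the optimal one and the replicate 2 summit 10 bp.

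**Figure D1:**
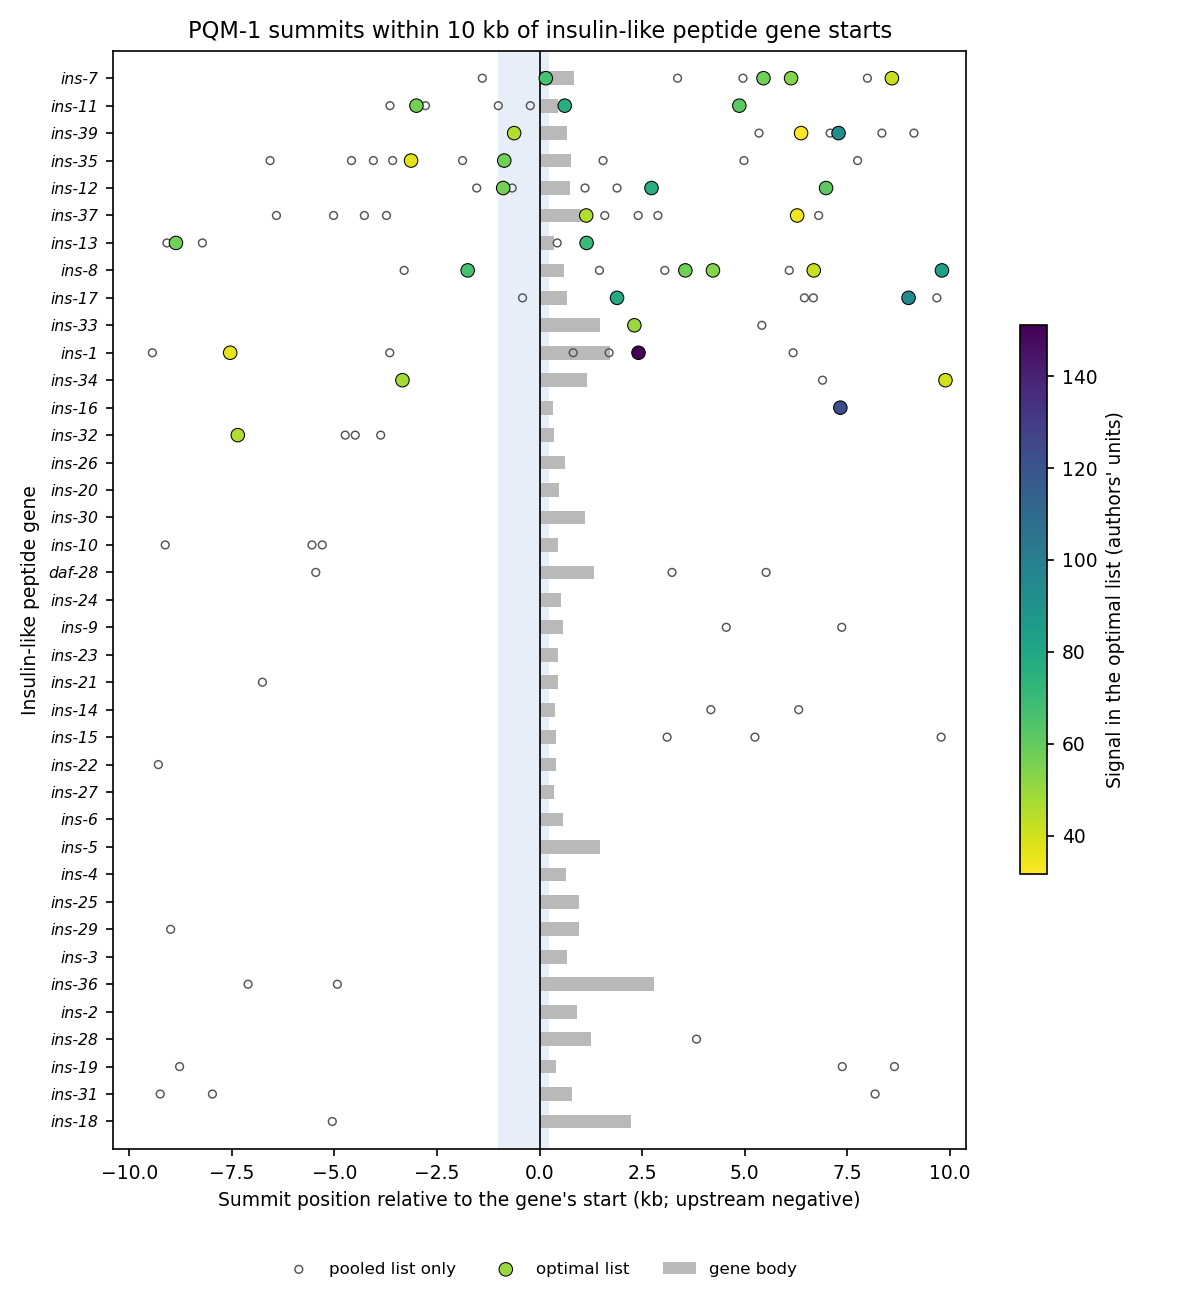
PQM-1 summits within 10 kb of the start of each insulin-like peptide gene, which are ordered by distance to the nearest optimal summit, with the position relative to the start in kb on the x axis. Filled circles are optimal summits coloured by signal, open circles are summits of the pooled list only, grey bars are gene bodies and the shaded band is the promoter. Filled circles in the band stand at ins-7, ins-12, ins-35 and ins-39, and the summit of highest signal, 151.1, is at 2409 bp from ins-1.

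Within 5 kb of the start, 12 members had an optimal summit (30.8%, 95% exact interval 17.0 to 47.6), against 35.8% of all genes. Beside the 4 genes above these were ins-1, ins-8, ins-11, ins-13, ins-17, ins-33, ins-34 and ins-37. The nearest summit was upstream of the start at 5 of the 12 members and downstream at 7. Over all 7145 genes with a summit within 5 kb it was upstream at 66.1%. The 7 include ins-7, whose summit is in its own intron, and ins-1 and ins-17, where a neighbour's start was nearer. The ins-7 summit also counts as the upstream one of ins-8. The difference from all genes was not tested.

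At 4 insulin-like genes a summit stood past the 3′ end with no nearer protein-coding start. At ins-11, an intestinal peptide gene induced by bacterial pathogens, the summit lay 612 bp from the start and 170 bp past the gene's end, with a signal of 75.8 and rank 1283. It held a TGATAAG centred 16 bp away, and its replicate signals were 21.8 and 53.4. A second summit, 4866 bp from ins-11 with a signal of 61.0, stood at −140 bp from the start of C17C3.3. For ins-37 the summit lay 1135 bp from the start and 129 bp past the end, with a signal of 46.0 (replicate lists 1 and 2 gave 11.8 and 35.9), among 4 WGATAR matches. This summit was not much farther from the start of F08G2.5, at −1341 bp. For ins-13, whose start lies inside another gene, acdh-2, the summit lay 1144 bp from the start and 792 bp past the end. It had a signal of 69.95 (replicate lists 1 and 2 gave 26.8 and 47.5), held no WGATAR, and was at −1935 bp from the start of C17C3.24. For ins-33, a gene that promotes larval germline proliferation, the summit lay 2309 bp from the start and 843 bp past the end. It had a signal of 49.99 (replicate lists 1 and 2 gave 21.4 and 27.0), and its nearest TGATAAG was centred 1 bp away.

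In all, 9 optimal summits had a member as the nearest protein-coding start, among them the summit nearly midway between ins-35 and srh-177. Of these, 4 lay upstream of the start, 1 within the gene and 4 past its 3′ end. Over all 4739 optimal summits, 64.8% lay upstream of the nearest start, 26.9% within that gene and 8.25% past its end. Insulin-like peptide genes are short, with a median length of 655 bp against 2027 bp for all genes, so a summit at a given distance downstream passes their end sooner. The part of gene length in this pattern was not tested.

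The strongest site near any member belonged by position to a neighbour. The summit 2409 bp downstream of the start of ins-1, whose product is an antagonist of DAF-2 and the peptide most like human insulin, had a signal of 151.1 and rank 145 of 4739. It was 698 bp past the end of ins-1 but at −13 bp from the start of F13B12.3, and its TGATAAG was centred 5 bp away. Its signal was 45.8 in replicate 1 and 115.0 in replicate 2, the highest of the 15 sites in each list. Likewise the summit 1886 bp from ins-17, with a signal of 79.1 (28.2 in replicate 1, 50.3 in replicate 2), stood at −232 bp from the start of rps-1, a ribosomal protein gene, and also in the promoter of ifet-1. That at −3344 bp from ins-34, with a signal of 47.5, was 1 bp from the start of F52B11.5.

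At ins-8 the nearest summit was the one inside ins-7, and its further 2 summits, at 3551 and 4223 bp with signals of 57.3 and 53.1, were nearest to the start of nhr-34, a nuclear hormone receptor gene. The nearest optimal summit thus had the member's own start as the nearest one at 8 of the 12 members. Together 15 optimal summits lay within 5 kb of a member. Of these, 4 were in the promoter of a member, 4 only in promoters of other genes and 7 in no promoter. The matching shares over all optimal summits and all genes were not computed. These counts and the 8 of the 12 can therefore not be read as high or low.

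All 15 sites were overlapped by at least 1 bp in both replicates' lists, which is close to the design of the optimal list, since it was drawn from the same replicates. Signals ran from 8.39 to 45.8 in replicate 1 and from 22.8 to 115.0 in replicate 2, and the 2 lists are not on a shared scale. Standing within a list varied: the summit near ins-34 ranked 5526 of 24037 in replicate 1 and 2122 of 19038 in replicate 2, and the summit 4223 bp from ins-8 ranked 1274 and 3904. With 2 replicates no site was tested.

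**Figure D2:**
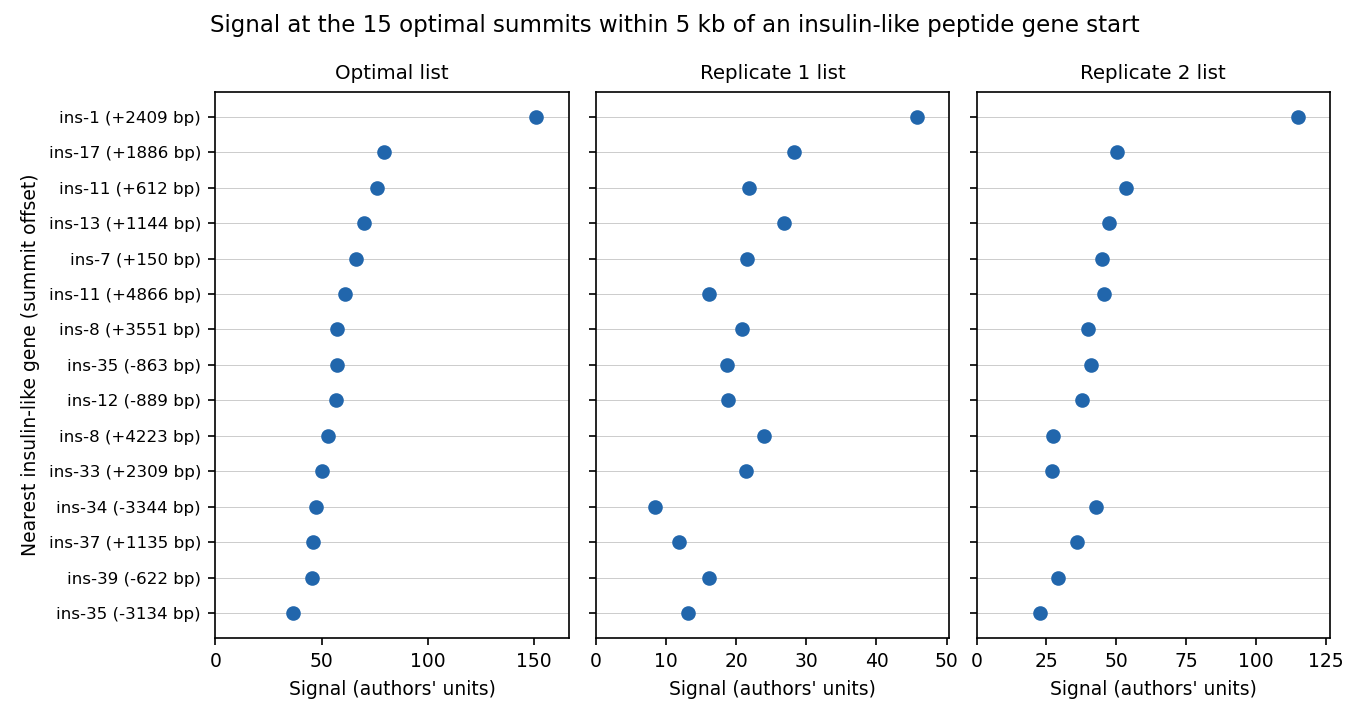
Signal, in the authors' units, of the 15 optimal summits within 5 kb of an insulin-like peptide gene start, in the optimal list and in the list of each replicate. Each point is 1 peak, named by its nearest insulin-like gene and the offset from that start, and the axes differ between panels because the lists are not on a shared scale. The site near ins-1 is highest in every panel, and the site near ins-34 is the lowest in replicate 1 at 8.39.

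The remaining 27 members had no optimal summit within 5 kb, and most were far from one. The median distance from the start to the nearest optimal summit was 19.5 kb in the family and 8.625 kb over all genes, and the middle 50% ran from 2.36 to 28.15 kb and from 2.86 to 20.1 kb. More than 10 kb away were 25 members (64.1%, 95% exact interval 47.2 to 78.8), against 45.8% of all genes. These intervals treat members as independent, which genes of 1 cluster are not, and the difference from all genes was not tested.

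Among the distant members were 3 agonists of the dauer decision and an antagonist. For daf-28, expressed in sensory neurons and known to hold off dauer formation, the nearest was 15881 bp downstream with a signal of 60.8. For ins-6 and ins-4, which act with daf-28 against dauer arrest, it lay 24680 and 28750 bp away. The antagonist ins-18 was farthest of all members, at 63949 bp. In the pooled list the nearest summit to daf-28 was at 3226 bp with a signal of 10.5, and that to ins-18 was at −5053 bp with a signal of 10.1.

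**Figure D3:**
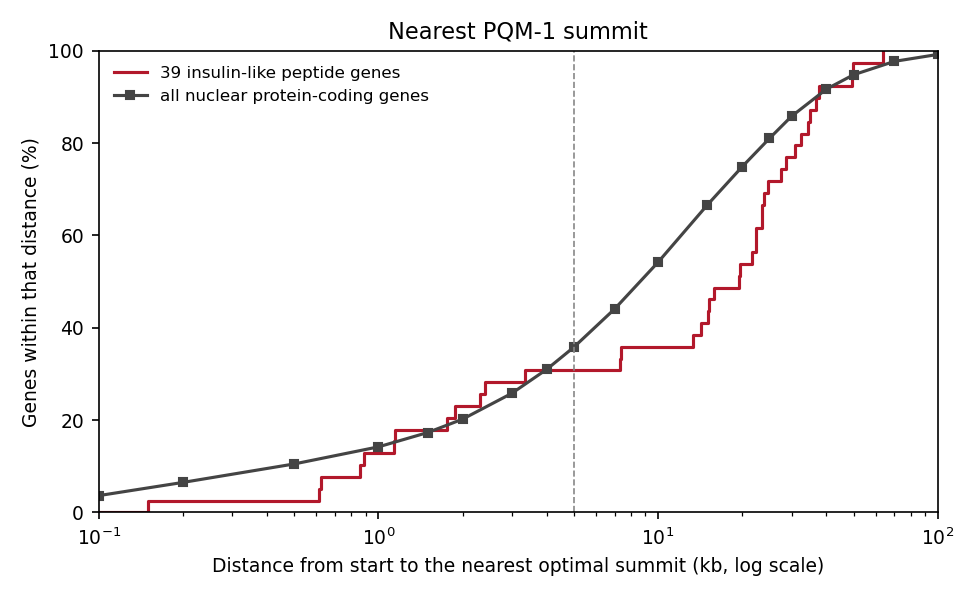
Cumulative share of genes by the distance in kb, on a log axis, from the start to the nearest optimal PQM-1 summit, for the 39 insulin-like peptide genes (red steps) and all nuclear protein-coding genes (grey, read at the marked distances); the dashed line is at 5 kb. The red line is below the grey at 0.5 kb (2.56% and 10.5%), slightly above it at 2 kb (23.1% and 20.2%) and below it at 10 kb (35.9% and 54.2%).

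Most clusters were far from an optimal summit. With a gap of 20 kb, chosen after the positions were seen, members whose starts lay at most that far from the next formed 7 clusters holding 25 genes, and the other 14 stood alone. Of the 25 clustered genes 5 had an optimal summit within 5 kb, with a median distance of 23.5 kb. Of the other 14 genes 7 had one, with a median of 5.34 kb. Over all genes the share was 35.8% and the median 8.625 kb. Genes of 1 cluster often shared their nearest summit, so the split rests on few loci, and it was not tested. The largest cluster, on chromosome I at 14012369 to 14037777, holds ins-24 to ins-30, and its 7 genes were 13.4 to 37.5 kb from the nearest optimal summit. The cluster of ins-2, ins-3, ins-4, ins-5, ins-6 and ins-20 on chromosome II at 5988524 to 6011321 was 14.3 to 36.6 kb away, and neither cluster had a pooled summit in any promoter. The cluster of ins-11, ins-12 and ins-13 at 5544512 to 5557173, also on chromosome II, had an optimal summit within 1.14 kb of each of its 3 starts. The pair ins-7 and ins-8 was also close, at 0.15 and 1.75 kb, and the other 3 clusters were 21.6 to 49.9 kb away.

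Weaker peaks were also infrequent at the family's promoters. In the pooled list 6 members had a promoter summit (15.4%, 95% exact interval 5.86 to 30.5), against 35.2% of all genes. The added members were ins-11, at −228 bp with a signal of 12.2, and ins-17, at −417 bp with a signal of 9.65, both below the lowest optimal signal of 31.5, and neither was overlapped in both replicates. Pooled without an optimal promoter summit, they make 5.13% of the family, against 22.4% of all genes. Within 5 kb the pooled list gave 19 members (48.7%, 95% exact interval 32.4 to 65.2), against 73.7% of all genes.

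In the replicates' own lists the shares were 23.1% in replicate 1 (9 members, against 38.0% of all genes) and 15.4% in replicate 2 (6 members, against 34.8%). The 4 genes with an optimal promoter summit were in both, which is close to the design of the optimal list. Beyond them replicate 1 had ins-10, ins-11, ins-17, ins-34 and ins-37, with signals from 2.06 to 7.10, and replicate 2 had ins-5 at 8.48 and ins-18 at 6.45. No further member was in both replicates' lists, and the share of all genes in both was not computed.

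**Figure D4:**
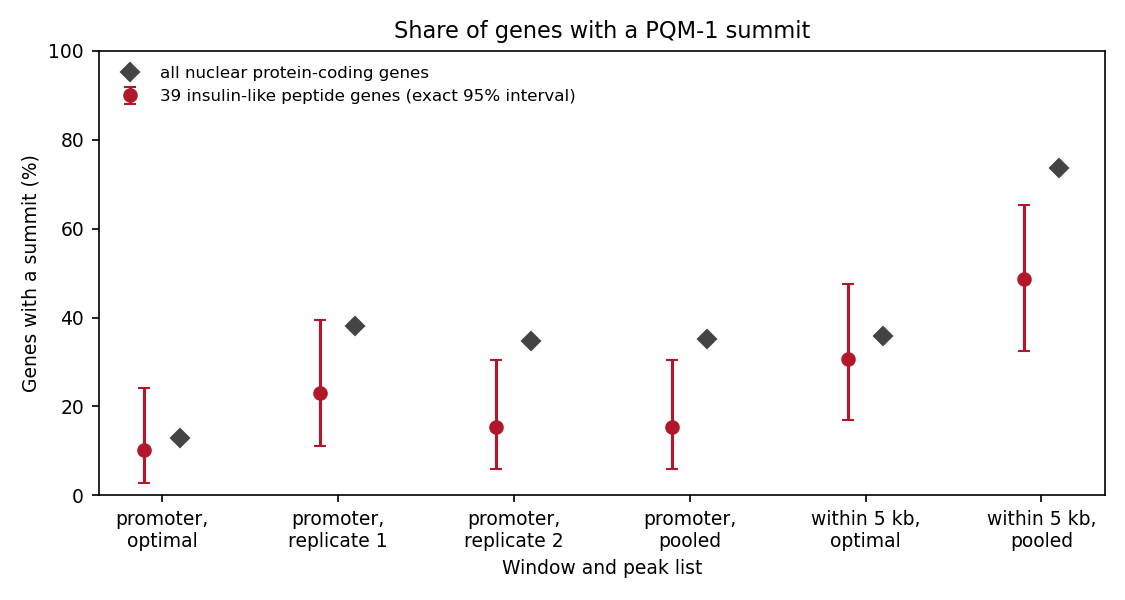
Percentage of genes with a PQM-1 summit in the promoter or within 5 kb of the start, by peak list, for the 39 insulin-like peptide genes (red circles with exact 95% intervals) and all nuclear protein-coding genes (grey diamonds). In the optimal list the promoter values are 10.3% and 12.8%, and in the pooled list 15.4% and 35.2%.

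The words seen at PQM-1 summits were present in members' promoters with and without a summit. Of the 15 sites within 5 kb, 9 held TGATAAG and 10 held WGATAR within 100 bp, beside 44.1% and 84.2% of all optimal summit windows. Of the 4 promoter summits, those of ins-7 and ins-12 held both and those of ins-35 and ins-39 neither. TGATAAG was present in 11 of 39 whole member promoters (28.2%), against 23.7% of all promoters of the same length of 1201 bp. Of these 11 promoters, 2 had an optimal summit and 9 had none, among them those of ins-4, with 2 matches, ins-18, ins-10 and ins-8. Over all genes, 28.7% of promoters with TGATAAG and 7.84% of those without had an optimal summit. The E-box CACGTG, looked at after the sequences were seen, lay within 100 bp of the summits near ins-11 and ins-12 and of no other site of the 15, beside 6.27% of all optimal summit windows.

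Of 10 genes of processing and secretion, 4 had an optimal promoter summit, against 12.8% of all genes. They were aex-5, a proprotein convertase gene (44.2), egl-21, the carboxypeptidase E gene (41.6), bli-4, another proprotein convertase gene (37.3), and hid-1, a gene of dense core vesicles (32.5), all 4 below the median optimal signal of 55.4. The others, egl-3, kpc-1, sbt-1, unc-31, asna-1 and ida-1, had no optimal promoter summit. Within 5 kb of the start 6 of the 10 had an optimal summit, against 35.8% of all genes. Of 11 genes from the receptor to DAF-16, 2 had an optimal promoter summit, against 12.8% of all genes. They were sgk-1 (60.5) and pptr-1 (54.2), on either side of the median optimal signal. Within 5 kb of the start 8 of the 11 had an optimal summit, against 35.8% of all genes. Neither list of genes was tested against all genes. The nearest summit to daf-16 was at 1751 bp with a signal of 83.8, and that to the receptor gene daf-2 at −25210 bp with a signal of 34.2.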

How the data were processed

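ChIP-seq of tagged PQM-1 in L4 larvae gave 3 libraries of 2 replicates, which differ in biosample per the labels. The values used are the signal per peak in the 4 ce11 peak lists deposited by the authors, used within a list only. Per the readmes deposited with them, each replicate list and the pooled list came from alignments and 1 further file that is not described but also enters their control-normalized signal, and the optimal list came from those 3 lists. What the further file is, the peak caller, aligner, threshold and signal scale: not given in the sources used here. Peaks lay within the WBcel235 chromosome lengths. Summits were assigned to promoters and nearest starts with Ensembl 115 genes, in Python 3.11.15 with pandas 2.3.3, numpy 2.4.6 and scipy 1.17.1 (exact Clopper-Pearson intervals, 95%), by code checked on made-up summits and words. Motifs were searched on both strands, 100 bp to each side of summits. The rule named members with an optimal summit in the promoter or within 5 kb, members with a pooled promoter summit in both replicates, 7 members of well-known role, pathway genes with an optimal promoter summit and genes sharing a promoter summit with a member. Other genes (daf-2, daf-16, the processing and secretion genes without an optimal promoter summit, neighbours, and members listed by cluster, replicate or motif) were named after their values were seen. No set test was made. Members, lists and tests were chosen with earlier results of these data known. The ce10 lists were not used here.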

Additional observations from a re-analysis of the deposited data

How the results depend on the processing

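Of 42 counts recomputed under alternatives of peak threshold, replicate, promoter, start, distance, member list and motif window, 38 stayed within 1.5 times the reported count. Some of the 42 could not change. Leaving out daf-28 or the members on chromosome I had no effect by construction, since daf-28 had no optimal or pooled promoter summit and no member on chromosome I had an optimal one. The median signal of members' promoter peaks, reported as 57.05, was 57.05 to 57.12 under the 7 alternatives that keep the scale of the optimal list. Most of these 7 kept the same 4 genes and the same peaks with their given signals, so the narrow range is no measure of stability. With a promoter from 500 bp upstream to 100 bp downstream, the members with an optimal summit went from 4 to 0, those with a pooled summit from 6 to 2, and the summits with TGATAAG from 2 to 0. By construction this window, set on the outermost start, leaves out summits at −622, −863, −889 and 150 bp, and it gave no median signal. It would hold the ins-7 summit if set on the second annotated start of ins-7. With 50 bp to each side in place of 100 bp, 1 promoter summit held TGATAAG. With 1 replicate left out the median signal ran from 18.7 to 39.4, on the other replicate's own scale, which is no measure of replicate spread. The members within 5 kb, reported as 12, were 11 to 14 when 1 replicate was left out and the other's list was cut to its 4739 strongest peaks; the uncut lists of replicates 1 and 2 gave 26 and 25, against 84.2% and 75.8% of all genes. No paired analysis was possible because the samples form 1 group. Depth is unknown, so whether a site was missed for lack of reads cannot be told.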

Other observations

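GTAAACA, the element bound by DAF-16, was present in 10 of 39 promoters of insulin-like peptide genes (25.6%), against 15.1% of all promoters of the same length, a difference that was not tested. The 10 genes were ins-1, ins-11, ins-14, ins-18, ins-24, ins-28, ins-29, ins-30, ins-33 and ins-35. Of them ins-35 alone had an optimal PQM-1 summit in its promoter and 9 had none, beside 16.8% of all promoters with GTAAACA that had one, so the members' share lay near the background.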
